A study of Mus musculus with 11 samples.

Results

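Transcripts of the sterol system were followed in mouse macrophages 1 hour after stimulation with lipopolysaccharide (LPS), with and without a prostaglandin E (PGE). The group held 30 genes chosen by function, with earlier results of these data known. They were enzymes of cholesterol synthesis, the regulators of their transcription, a regulator and a carrier of sterol supply, the liver X receptor (LXR) efflux genes and an oxysterol enzyme. Of these, 28 were measured among 18755 genes with a probe set that carries a single gene symbol, and Acat2 and Nr1h2 were not analysed here. Bone marrow cells of C57Bl/6 wild type animals had been cultured for 1 week in the presence of M-CSF (5 ng/ml), a macrophage growth factor, then replated and used 24 hours later. The 3 groups were 4 arrays of cells left untreated, 3 arrays of cells given 100 ng/ml LPS for 1 hour, and 4 arrays of cells given the same LPS together with 10 µM PGE for 1 hour. All groups shared the strain, genotype and culture, and the labels name neither the PGE used nor the age of the mice. A group given PGE alone was not analysed here. Nothing in the labels ties replicates to separate animals or cultures, so the p-values measure only the spread between these samples, which may be technical. In their deviations from the group means, 11 of 11 arrays correlated best with an array of the same replicate number. The main fit does not use these numbers.

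Cells make cholesterol from acetyl units through the mevalonate pathway, which ends in squalene, and then through ring closure and trimming of the sterol nucleus. SREBP transcription factors switch these enzymes on when membrane cholesterol falls, the escort protein SCAP carries SREBP to the Golgi, and the INSIG proteins hold the complex back in the endoplasmic reticulum when sterol is plentiful. Surplus sterol is sensed through oxysterols by LXR, which raises the exporters ABCA1 and ABCG1. In macrophages the enzyme cholesterol 25-hydroxylase (Ch25h) makes 25-hydroxycholesterol, an oxysterol that restrains SREBP processing and is known for antiviral and inflammatory roles.

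Promoter sequence is shown for the 4 members with the largest changes that had an entry in the RefSeq table (build GRCm38.p6), since these are the transcripts the results turn on. Each line gives the 250 bases before the gene start, 5′ to 3′ on the gene's strand, and capitals mark matches to the motifs named in the next paragraph.
Ch25h, chr19:34475149-34475398, minus strand: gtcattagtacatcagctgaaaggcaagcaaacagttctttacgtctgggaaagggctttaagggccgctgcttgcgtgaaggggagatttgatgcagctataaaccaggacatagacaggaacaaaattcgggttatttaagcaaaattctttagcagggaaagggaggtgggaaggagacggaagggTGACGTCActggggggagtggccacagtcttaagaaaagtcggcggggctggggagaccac
Insig1, chr5:28071162-28071411, plus strand: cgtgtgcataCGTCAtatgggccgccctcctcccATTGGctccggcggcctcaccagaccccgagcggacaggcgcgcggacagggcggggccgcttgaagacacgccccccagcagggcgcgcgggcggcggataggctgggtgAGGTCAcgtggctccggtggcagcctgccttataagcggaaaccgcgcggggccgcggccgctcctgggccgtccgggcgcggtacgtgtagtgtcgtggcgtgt
Lss, chr10:76531355-76531604, plus strand: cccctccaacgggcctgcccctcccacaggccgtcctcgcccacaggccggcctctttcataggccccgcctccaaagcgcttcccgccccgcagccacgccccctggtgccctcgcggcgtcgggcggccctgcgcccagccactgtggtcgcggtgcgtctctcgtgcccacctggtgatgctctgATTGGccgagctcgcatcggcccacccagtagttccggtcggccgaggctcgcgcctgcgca
Mylip, chr13:45389492-45389741, plus strand: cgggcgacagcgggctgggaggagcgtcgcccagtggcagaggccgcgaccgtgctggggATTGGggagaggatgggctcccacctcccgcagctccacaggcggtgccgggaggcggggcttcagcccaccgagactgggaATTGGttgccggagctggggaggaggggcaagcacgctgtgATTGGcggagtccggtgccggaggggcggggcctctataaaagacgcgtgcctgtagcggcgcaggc

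A window was found for 23 of the 28 measured members, and 7 motifs were searched on both strands. The cyclic AMP response element (CRE), TGACGTCA, was in 1 of the 23 members, Ch25h, from 61 to 54 bases before its start, and in 1.77% of 27025 genes with a window. Its half-site TGACG, which the full element contains on each strand, was in 9 members and in 19.8% of genes, and in Insig1 it lay from 240 to 236 bases before the start. The NF-Y box CCAAT, which often neighbours SREBP sites, was in 18 members (78.3%) and in 37.5% of genes. Among the sequences printed it occurred on the reverse strand (as ATTGG), once each in Insig1 and Lss, and in Mylip at 3 places, from 190 to 186, 108 to 104 and 67 to 63 bases before the start. The sterol regulatory element core TCACNCCAC was in 1 member, Hmgcs1, as TCACCCCAC from 137 to 129 bases before the start, and in 1.22% of genes. The LXR half-site AGGTCA was in 3 members (Hmgcs1, Dhcr7 and Insig1) and 15.8% of genes, the AP-1 site TGANTCA in 1 member (Dhcr7) and 7.82%, and the NF-kB site in 5 members and 8.23%. These matches describe letters in a short window and are not evidence of binding.

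Values are log2 expression as deposited, in which 1 unit equals a factor of 2, and the levels of different genes are not compared. Changes are log2 fold changes ± SE from a limma fit over all 11 arrays and all 18755 genes, and a gene passed where its Benjamini-Hochberg adjusted p was under 0.05. The number of arrays limits the precision. All 10 macrophage markers lay above the median of all genes in every group, with array means of 11.07 to 11.24. Against untreated, Cd14 rose by 1.64 with LPS and 2.22 with LPS plus PGE, and Cd200r1 fell by 0.50 and 0.56. Aif1 fell by 0.30 with LPS plus PGE against untreated, and Cd14 was 0.59 higher with LPS plus PGE than with LPS. The rest of these markers passed in no comparison. Of 38 markers of 7 other cell types, 0 rose and 2 fell with LPS, beside 6.55% and 6.69% of all genes. With LPS plus PGE against untreated 6 rose and 1 fell, beside 13.8% and 17.9% of all genes. Against LPS 7 rose and 1 fell, beside 11.9% and 12.9%. In the first and second quartiles of level 13% and 23.2% of genes rose against untreated, and 14.1% and 24.8% against LPS. By list, the array means of these markers lay between 3.59 and 5.07, and their part in the results was not tested. In such bulk samples, fewer cells of a type and less RNA per cell cannot be told apart. The change of a gene also followed its level in both comparisons of LPS plus PGE arrays. Against untreated, the median change was 0.12 and 0.16 in the lower quartiles of level and -0.16 and -0.09 in the upper ones, and against LPS it was 0.12, 0.18, -0.17 and -0.07. With LPS alone these medians lay between -0.03 and 0.0032. Since 27 of the 28 members lay in the upper quartiles (10 in the third, 17 in the fourth), results are also given after cyclic loess normalization, which removes shifts that follow the level. The cause of these shifts was not tested.

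With LPS alone 7 of the 28 members passed, a share of 25%, against 13.2% of all genes. Hmgcs1, Idi1, Srebf2, Insig1, Stard4 and Ch25h rose (6 members, beside 6.55% of all genes), and Dhcr7 fell (1 member, beside 6.69%). With LPS plus PGE against untreated 12 members passed (42.9%), against 31.7% of all genes and 47.6% and 35.6% of genes in those quartiles. Hmgcs1, Idi1, Cyp51, Insig1 and Abca1 rose (5 members, beside 13.8% of all genes), while Mvd, Fdft1, Lss, Sc5d, Dhcr7, Mylip and Abcg1 fell (7 members, beside 17.9%). With LPS plus PGE against LPS 4 members passed (14.3%), against 24.7% of all genes and 35.1% and 19.4% of genes in those quartiles. Fdft1, Srebf1, Mylip and Ch25h fell (4 members, beside 12.9% of all genes). In that comparison limma called 0 members higher, beside 11.9% of all genes, and 2 were higher at an unadjusted p under 0.05. The median change of the members was 0.02 with LPS (all genes -0.01), -0.05 with LPS plus PGE against untreated (all genes 0.02) and -0.09 against LPS (all genes -0.0045). The arrays of the compared groups did not overlap for 13, 13 and 11 members in the 3 comparisons, against 23.1%, 35.1% and 33.9% of all genes. The comparisons share arrays, so their counts are not independent of each other.

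The split into rises and falls depended on the scaling of the arrays. After cyclic loess 7 members rose and 1 fell with LPS, 8 rose and 3 fell with LPS plus PGE against untreated, and 3 rose and 3 fell against LPS. Quantile normalization gave 6 rises and 2 falls, 7 and 6, and 1 and 3. With array medians set equal, the members split into 4 rises and 2 falls, 9 and 3, and 6 and 2. That last setting moved the median of all genes to 0.14 against untreated and 0.15 against LPS, and the called genes with it, from 2587 rises and 3359 falls to 5747 and 1724, and from 2225 and 2416 to 5850 and 718.

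**Figure D1:**
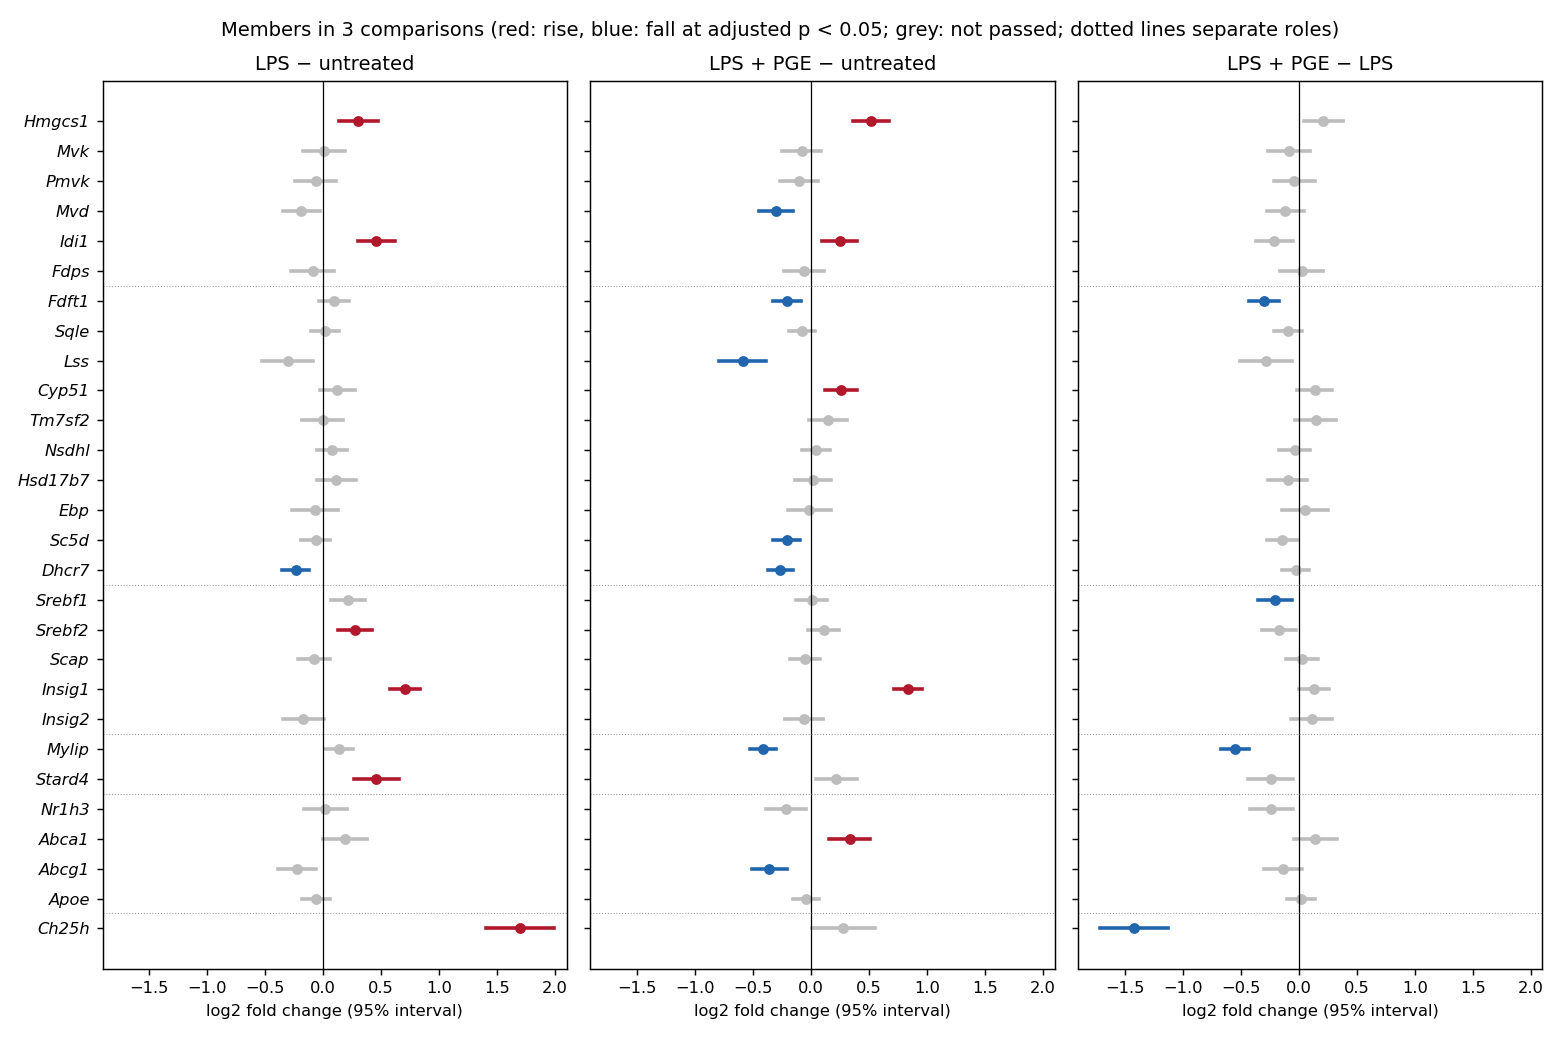
Log2 fold change with its 95% interval for each measured member in the 3 comparisons, ordered by role, red for rises and blue for falls that passed and grey for the rest. Ch25h stands out with a rise of 1.70 with LPS and a fall of 1.42 with LPS plus PGE against LPS, while most members lie within 0.5 of 0.

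Ch25h, the oxysterol enzyme, changed most among the members, and it was the only member past a 2-fold change, with LPS and between the treatments. Changes of that size that passed made up 1.93% of all genes with LPS, 2.97% with LPS plus PGE against untreated and 0.714% against LPS. Its level in the untreated arrays was 4.58, 4.54, 4.05 and 4.51. In the LPS arrays it was 6.27, 6.10 and 6.00, and in the LPS plus PGE arrays 4.60, 4.76, 4.52 and 4.92. Every LPS array was far above all others, and the LPS plus PGE arrays overlapped the untreated ones. The rise with LPS was 1.70 ± 0.13, which is 3.25-fold (limma adjusted p = 2.61e-06). With PGE present, the level was 1.42 ± 0.13 below that with LPS alone, a 2.68-fold lower value (limma adjusted p = 4.02e-05). Between LPS plus PGE and untreated the difference was 0.28 ± 0.12, with a 95% interval of 0.01 to 0.55 (limma adjusted p = 0.108). It passed with array medians set equal (0.40, limma adjusted p = 0.0199) and in a fit with the replicate number as a block. Without untreated replicate 3, the lowest array, this difference was 0.15 (limma adjusted p = 0.269). For all genes at levels of 4 to 5, where the mean of Ch25h lay (4.99), the median change against untreated was 0.19, with quartiles of 0.07 and 0.30. The difference of 0.28 lay between these quartiles. After cyclic loess the 3 differences of Ch25h were 1.72, -1.50 and 0.22. The untreated and LPS plus PGE values lay below the median of all genes on their arrays, and background can compress a fold change at low levels.

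**Figure D2:**
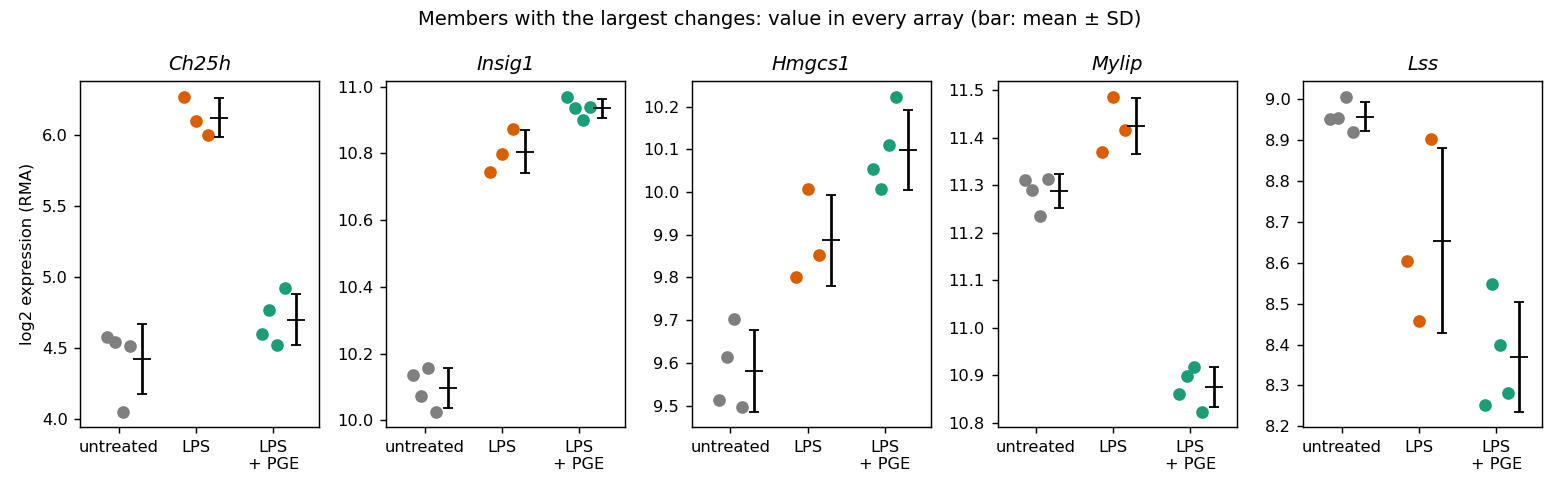
Log2 expression in every array for the 5 members with a change of at least 0.5 that passed, by group, each panel on its own axis and with bars for mean ± SD. The 3 LPS arrays of Ch25h lie at 6.00 to 6.27, above all other arrays, and the 4 LPS plus PGE arrays of Mylip lie at 10.82 to 10.92, below all others.

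Among the 5 SREBP regulators, Insig1 rose in both treatments, Srebf2 passed with LPS alone, Srebf1 passed between the treatments, and Scap and Insig2 passed in no comparison. Insig1, itself a target of SREBP and a brake on it, had levels of 10.14, 10.07, 10.16 and 10.03 in untreated arrays. It reached 10.74, 10.80 and 10.87 with LPS and 10.97, 10.94, 10.90 and 10.94 with LPS plus PGE, so the 3 groups did not overlap. The rise was 0.71 ± 0.06 with LPS (limma adjusted p = 3.80e-06) and 0.84 ± 0.05 with LPS plus PGE (limma adjusted p = 2.12e-07). The step from LPS to LPS plus PGE, 0.13 ± 0.06, did not pass (limma adjusted p = 0.116), but did with array medians set equal (0.29, limma adjusted p = 0.00722). Its relative Insig2, which serves the same brake, differed by -0.17 ± 0.08, -0.06 ± 0.07 and 0.11 ± 0.08 in the 3 comparisons and did not pass.

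Srebf2, the SREBP that mainly drives cholesterol synthesis, ranged from 10.07 to 10.15 in untreated, 10.26 to 10.46 in LPS and 10.11 to 10.27 in LPS plus PGE arrays. Its rise with LPS was 0.28 ± 0.07 (limma adjusted p = 0.0157). That call was lost without LPS replicate 2 (0.24, adjusted p = 0.0668), without LPS replicate 3 (0.25, adjusted p = 0.0576) and with array medians set equal (0.25, adjusted p = 0.0603). Against LPS, Srebf2 was -0.17 ± 0.07 with LPS plus PGE (limma adjusted p = 0.0821), and this passed without LPS replicate 1 (-0.23, adjusted p = 0.0313). After cyclic loess, Srebf2 also passed with LPS plus PGE against untreated (0.20, from 0.11 ± 0.06 as deposited). Srebf1, the SREBP that mainly drives fatty acid synthesis, ranged from 8.45 to 8.56 in untreated, 8.59 to 8.83 in LPS and 8.49 to 8.56 in LPS plus PGE arrays, so the LPS arrays lay above all others. It was 0.21 ± 0.07 above untreated with LPS, which did not pass (limma adjusted p = 0.0549) but did without LPS replicate 1 (0.28, adjusted p = 0.0128) and after cyclic loess (0.22, adjusted p = 0.0356). With PGE present Srebf1 differed from untreated by 0.0074 ± 0.06 and was 0.21 ± 0.07 lower than with LPS alone (limma adjusted p = 0.0415). This last call was lost in 16 of 21 alternative settings, with adjusted p-values up to 0.654, including the removal of any 1 of 9 arrays. The removal of LPS replicate 3 moved it most among these (-0.16, adjusted p = 0.146), and after cyclic loess it was -0.06. SREBP is controlled by protein cleavage, which these arrays do not measure.

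In the mevalonate and isoprenoid arm, 2 of 6 measured enzymes rose with LPS, beside 6.55% of all genes. In the upper quartiles of level, where all 6 lay, 11.3% and 10.4% of genes rose. Under LPS plus PGE against untreated 2 rose and 1 fell, beside 13.8% and 17.9% of all genes. Between LPS plus PGE and LPS limma called 0 of the 6, beside 24.7% of all genes, and 2 were at an unadjusted p under 0.05. Hmgcs1, the synthase that feeds the pathway, stood at 9.51, 9.61, 9.70 and 9.50 in untreated arrays, 9.80, 10.01 and 9.85 with LPS, and 10.05, 10.01, 10.11 and 10.22 with LPS plus PGE. All treated arrays were above all untreated ones. The rise with LPS plus PGE was 0.52 ± 0.07 (limma adjusted p = 0.000202). The rise with LPS alone was 0.31 ± 0.08 (limma adjusted p = 0.0225) and did not pass without untreated replicate 1 (0.28, adjusted p = 0.0572), untreated replicate 4 (0.28, adjusted p = 0.0610) or LPS replicate 2 (0.25, adjusted p = 0.0928). It also failed in a fit of the compared groups alone (adjusted p = 0.0503) and with array medians set equal (0.27, adjusted p = 0.0961). The difference between the treatments, 0.21 ± 0.08 (limma adjusted p = 0.0667), passed after cyclic loess at 0.30 and without LPS replicate 2 at 0.27 (adjusted p = 0.0412).

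Idi1, which makes the activated isoprene unit, ranged from 8.61 to 8.84 in untreated, 9.14 to 9.32 in LPS and 8.92 to 9.07 in LPS plus PGE arrays. It rose by 0.46 ± 0.07 with LPS (limma adjusted p = 0.0011) and by 0.25 ± 0.07 with LPS plus PGE (limma adjusted p = 0.0163), and the latter value grew to 0.38 after cyclic loess. Between the treatments Idi1 was -0.21 ± 0.07 (limma adjusted p = 0.0539), which passed without untreated replicate 1 (adjusted p = 0.0425) and was -0.09 after cyclic loess. Its other probe set gave 0.37 ± 0.08 and 0.28 ± 0.07. Mvd, which makes isopentenyl diphosphate, was 0.30 ± 0.07 lower with LPS plus PGE than untreated (limma adjusted p = 0.0055). It did not pass after quantile normalization (-0.18), with equal array medians (-0.18) or after cyclic loess (-0.14). The kinases Mvk and Pmvk and the farnesyl diphosphate synthase Fdps passed in no comparison.

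From squalene to cholesterol, 1 of 10 enzymes passed with LPS (a fall), beside 13.2% of all genes. Under LPS plus PGE against untreated 5 passed (1 rise and 4 falls), beside 31.7% of all genes. All 10 enzymes lay in the upper quartiles of level, where 39.2% and 25.1% of genes fell in that comparison. Under LPS plus PGE against LPS 1 passed (a fall), beside 24.7% of all genes. Lss, which closes the sterol ring, stood at 8.95, 8.95, 9.01 and 8.92 in untreated arrays. It was 8.60, 8.46 and 8.90 with LPS and 8.25, 8.55, 8.40 and 8.28 with LPS plus PGE. All treated arrays were below the untreated ones, and the treatments overlapped. The fall with LPS plus PGE was 0.59 ± 0.09 (limma adjusted p = 0.000574), and it was 0.44 after cyclic loess. The differences of -0.30 ± 0.10 with LPS (limma adjusted p = 0.0734) and -0.28 ± 0.10 between the treatments (limma adjusted p = 0.0601) did not pass. Both turned on single arrays of the scattered LPS group. Without LPS replicate 3, the highest of them, Lss fell by 0.43 with LPS (limma adjusted p = 0.00913) and the difference between the treatments was -0.16 (limma adjusted p = 0.229). Without LPS replicate 2, the lowest, these values for Lss were -0.20 (limma adjusted p = 0.251) and -0.38 (limma adjusted p = 0.0235). The difference between the treatments also passed without LPS plus PGE replicate 2 (-0.34, limma adjusted p = 0.0384), and that with LPS passed with equal array medians (-0.34, limma adjusted p = 0.0356).

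Cyp51, the lanosterol demethylase, moved the other way from Lss. It ranged from 8.52 to 8.61 in untreated, 8.58 to 8.84 in LPS and 8.77 to 8.89 in LPS plus PGE arrays, and rose by 0.26 ± 0.06 with LPS plus PGE (limma adjusted p = 0.0086). That rise grew to 0.41 after cyclic loess. Against LPS, Cyp51 was 0.14 ± 0.07 higher (limma adjusted p = 0.156), which passed after cyclic loess (0.28) and without LPS replicate 2 (0.21, adjusted p = 0.0423). Dhcr7, the last reductase of the pathway, fell by 0.24 ± 0.05 with LPS (limma adjusted p = 0.0131), from 8.58 to 8.67 in untreated arrays to 8.36 to 8.40. Its fall of 0.26 ± 0.05 with LPS plus PGE passed as deposited (limma adjusted p = 0.0021) and not after cyclic loess (-0.11) or with equal array medians (-0.14).

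Fdft1, which commits farnesyl units to squalene, fell by 0.30 ± 0.06 with LPS plus PGE against LPS (limma adjusted p = 0.0051) and by 0.21 ± 0.06 against untreated (limma adjusted p = 0.0141). The first call was lost with equal array medians (-0.14), and the second with equal array medians (-0.08) and after cyclic loess (-0.10). Sc5d, the sterol desaturase before Dhcr7, fell by 0.21 ± 0.05 with LPS plus PGE against untreated (limma adjusted p = 0.0121), and this call was lost under the same settings (-0.08 and -0.10). The falls of Dhcr7, Fdft1 and Sc5d against untreated thus held only for the scaling as deposited and after quantile normalization. Sqle, Tm7sf2, Nsdhl, Hsd17b7 and Ebp did not pass as deposited. Tm7sf2, a sterol reductase, passed after cyclic loess with LPS plus PGE, at 0.31 against each of the other groups, from 0.14 ± 0.07 and 0.14 ± 0.08 as deposited.

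**Figure D3:**
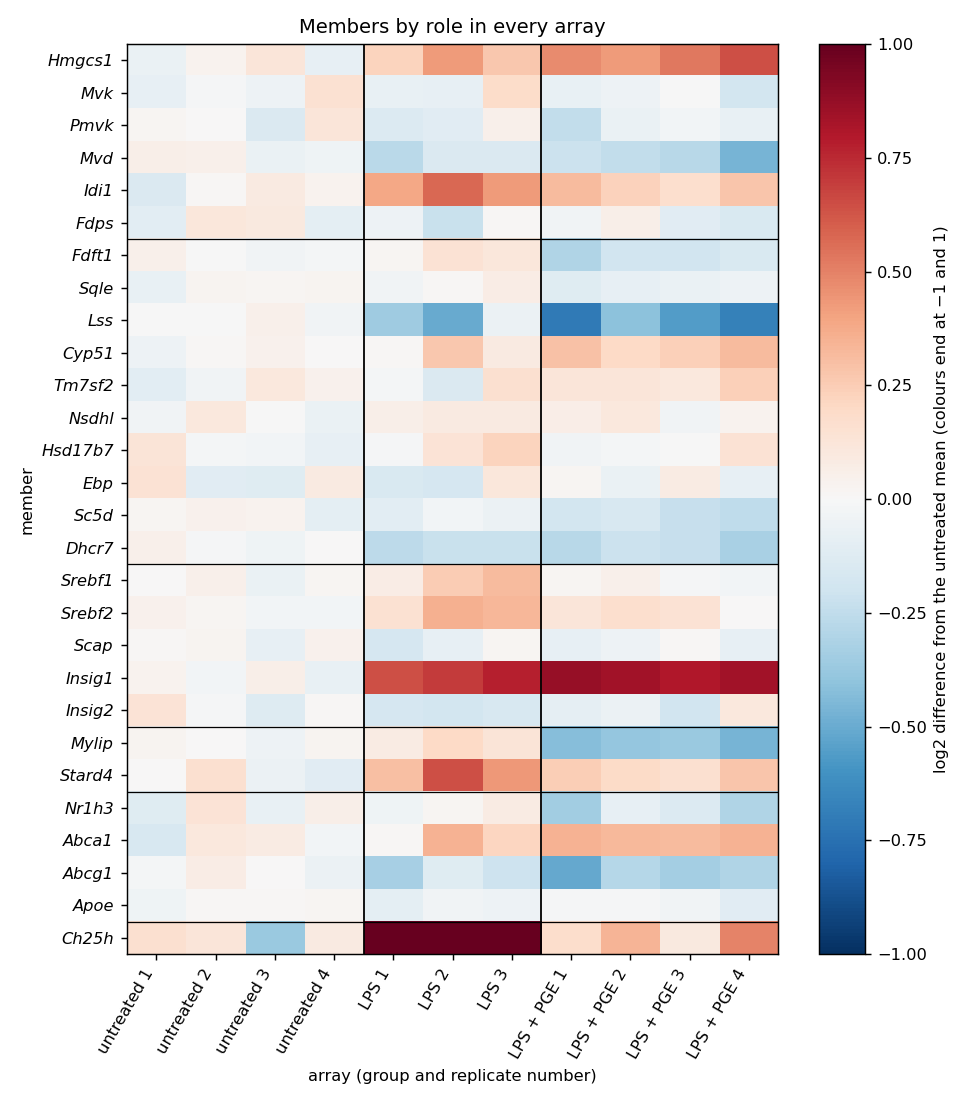
Log2 difference of each measured member from its untreated mean in every array, with members ordered by role and colours ending at -1 and 1. The rows of Insig1 and Hmgcs1 are raised in all 7 treated arrays, Mylip is lowered in the 4 LPS plus PGE arrays, and Ch25h is raised past the colour scale in the 3 LPS arrays.

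Of the pair that controls uptake and moves sterol inside the cell, Mylip fell with PGE present and Stard4 rose with LPS alone. Mylip encodes the ubiquitin ligase IDOL, an LXR target that degrades lipoprotein receptors. Its levels were 11.31, 11.29, 11.24 and 11.31 in untreated arrays, 11.37, 11.49 and 11.42 with LPS, and 10.86, 10.90, 10.92 and 10.82 with LPS plus PGE. The LPS plus PGE arrays lay below all others, and the LPS arrays above the untreated ones. Mylip was lower with LPS plus PGE by 0.41 ± 0.05 against untreated (limma adjusted p = 8.43e-05) and by 0.55 ± 0.06 against LPS (limma adjusted p = 7.20e-05). After cyclic loess these falls were 0.36 and 0.53, and with equal array medians 0.29 and 0.39. The difference with LPS alone, 0.14 ± 0.06, did not pass (limma adjusted p = 0.141).

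Stard4, a carrier that moves cholesterol between membranes and an SREBP target, ranged from 8.36 to 8.64 in untreated, 8.77 to 9.12 in LPS and 8.63 to 8.75 in LPS plus PGE arrays. It rose by 0.46 ± 0.09 with LPS (limma adjusted p = 0.0041). In the LPS plus PGE arrays it was 0.22 ± 0.08 above untreated (limma adjusted p = 0.0606), which passed after cyclic loess (0.37, adjusted p = 0.0104). It also passed without untreated replicate 2 (0.27, adjusted p = 0.0287), LPS replicate 1 (0.22, adjusted p = 0.0436) or LPS replicate 2 (0.22, adjusted p = 0.0340). Against LPS, Stard4 was -0.24 ± 0.09 (limma adjusted p = 0.0658). That difference was -0.15 without LPS replicate 2 (adjusted p = 0.222), and it passed without LPS replicate 1 (-0.32, adjusted p = 0.0325).

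The LXR and efflux genes split. With LPS alone limma called 0 of the 4 measured, beside 13.2% of all genes, and 2 were at an unadjusted p under 0.05. These 2 were the exporters Abca1 (0.19 ± 0.09) and Abcg1 (-0.22 ± 0.07). Between the treatments limma called 0, beside 24.7% of all genes, with 1 (Nr1h3) at an unadjusted p under 0.05. There Abca1 differed by 0.14 ± 0.09 and Abcg1 by -0.14 ± 0.07. With LPS plus PGE against untreated, one exporter rose and the other fell, the same directions as with LPS alone. Abca1, which loads cholesterol onto lipid-poor apolipoprotein, ranged from 10.44 to 10.71 in untreated, 10.62 to 10.95 in LPS and 10.92 to 10.96 in LPS plus PGE arrays, and rose by 0.33 ± 0.08 (limma adjusted p = 0.0079). Abcg1, which exports cholesterol to high-density lipoprotein, ranged from 11.96 to 12.10 in untreated, 11.69 to 11.90 in LPS and 11.51 to 11.73 in LPS plus PGE arrays. It fell by 0.36 ± 0.07 (limma adjusted p = 0.0021), and by 0.23 with equal array medians. After cyclic loess the exporters still differed from untreated in opposite directions, at 0.40 and -0.33. The receptor Nr1h3 (LXR alpha) and the carrier Apoe did not pass in any comparison as deposited. Nr1h3 was -0.22 ± 0.08 against untreated with LPS plus PGE (limma adjusted p = 0.0546) and -0.24 ± 0.09 against LPS (limma adjusted p = 0.0622). Without LPS plus PGE replicate 2 both Nr1h3 differences passed (-0.26, adjusted p = 0.0366, and -0.28, adjusted p = 0.0458), and the first also without untreated replicate 1 (-0.26, adjusted p = 0.0408). The difference of Nr1h3 against untreated passed as well in a fit with the replicate number as a block.

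The 12 members that passed in no comparison were Mvk, Pmvk, Fdps, Sqle, Tm7sf2, Nsdhl, Hsd17b7, Ebp, Scap, Insig2, Nr1h3 and Apoe. Their changes ran from -0.17 to 0.12 with LPS, from -0.22 to 0.14 with LPS plus PGE against untreated and from -0.24 to 0.14 against LPS. Their 95% intervals as deposited all lay within -0.34 to 0.28, -0.39 to 0.31 and -0.42 to 0.32, so changes of 0.5 in either direction were outside them. These are unadjusted intervals of single genes and do not cover the choice of scaling. After cyclic loess Tm7sf2, one of these members, passed. The spread between replicates was small for the members: in untreated, LPS and LPS plus PGE arrays their median SD was 0.071, 0.103 and 0.064, against 0.107, 0.121 and 0.102 for all genes. These medians are not matched for level.

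**Figure D4:**
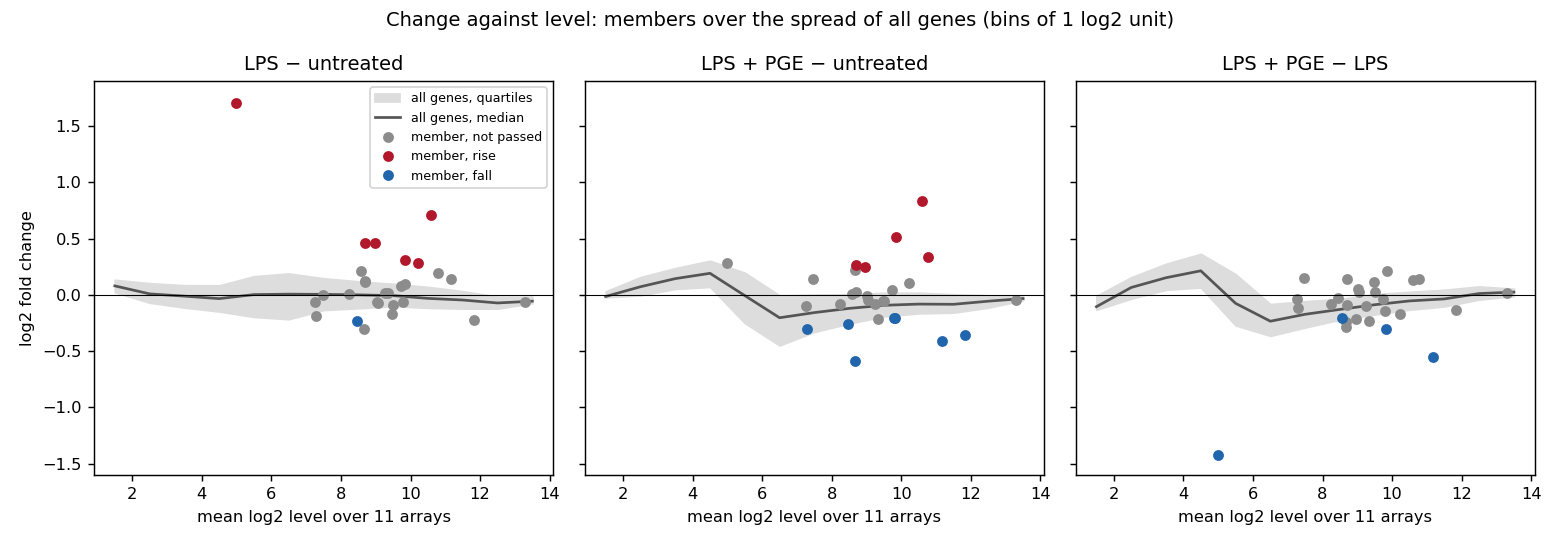
Log2 fold change of each measured member against its mean log2 level over the 11 arrays, over the median (line) and quartiles (band) of all genes in bins of 1 log2 unit. The line is near 0 with LPS alone. In both LPS plus PGE panels it is above 0 for levels from 2 to 5 and below 0 for levels from 6 to 12, and against LPS it returns just above 0 for the brightest genes (0.02 for levels of 13 to 14, where Apoe lies).

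**Figure D5:**
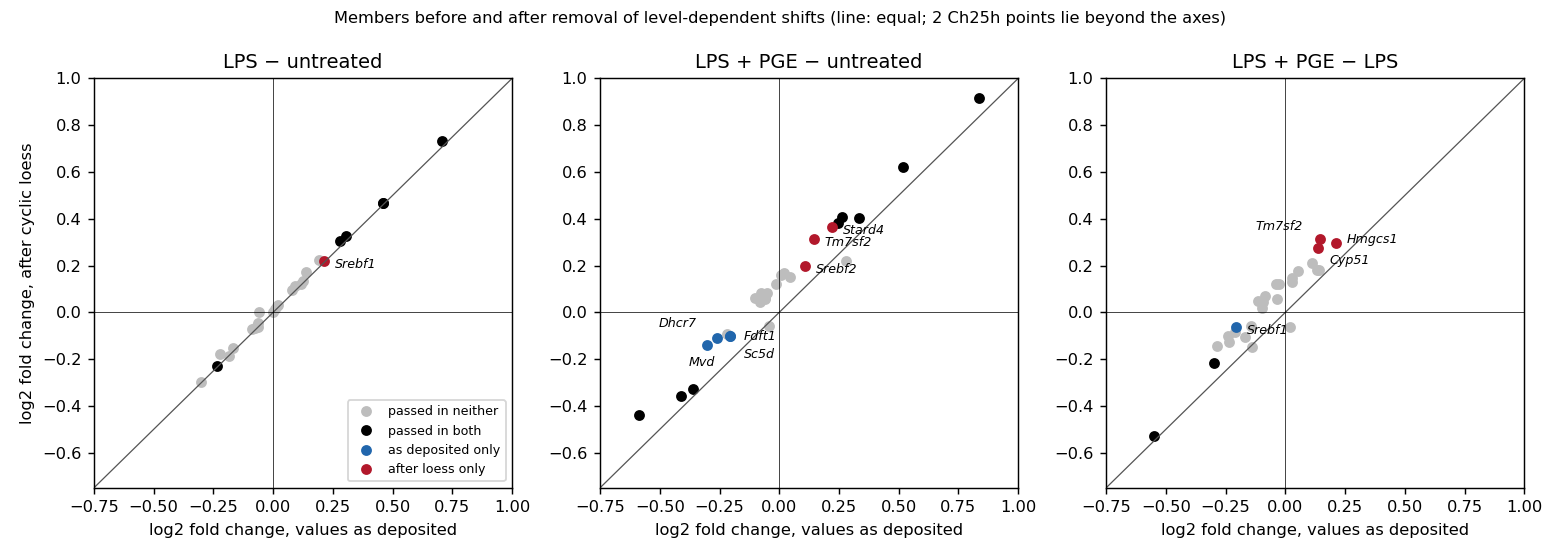
Log2 fold change of the members after cyclic loess normalization against the value as deposited, with the line of equality, for the 3 comparisons. In both LPS plus PGE panels nearly all members lie above the line, and the falls of Mvd, Dhcr7, Fdft1 and Sc5d against untreated no longer pass.

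Other genes of the sterol system, 64 measured of 71 listed, were read from the same fit. With LPS 6 rose and 1 fell, with LPS plus PGE against untreated 6 rose and 12 fell, and against LPS 3 rose and 5 fell. The shares passing were 10.9%, 28.1% and 12.5%, beside the 13.2%, 31.7% and 24.7% of all genes. In each list the largest changes that passed are named here. Of 25 such changes, 11 passed under every alternative setting and 18 after cyclic loess.

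Among 10 uptake receptors and lysosomal exporters, Olr1, a scavenger receptor for oxidised lipoprotein, had the largest change. Its mean level went from 4.51 untreated to 9.93 with LPS and 10.98 with LPS plus PGE, rises of 5.42 ± 0.16 and 6.47 ± 0.15 (limma adjusted p = 2.31e-10 and 1.11e-11). With PGE it was 1.05 ± 0.16 above LPS alone (limma adjusted p = 0.00133), the opposite direction to Ch25h. The scavenger receptor Msr1 rose by 0.29 ± 0.07 with LPS and was 0.30 ± 0.07 lower with LPS plus PGE than with LPS, a call lost with equal array medians. The lipoprotein receptor Lrp8 rose by 0.52 ± 0.13 with LPS plus PGE against untreated.

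Of 11 genes measured from the list of esterification and sterol carriers, 3 rose with LPS, beside 6.55% of all genes. With LPS plus PGE against untreated 3 rose and 6 fell, beside 13.8% and 17.9% of all genes. The lowest of these changes was -0.31, where the median change of all genes in the upper quartiles of level was -0.16 and -0.09. The listed esterification enzymes Soat1 and Soat2 were not among the genes measured. Cav1, the caveolae protein, rose by 1.63 ± 0.18 and 1.43 ± 0.16, and Gramd1a, which moves cholesterol from the plasma membrane to the endoplasmic reticulum, by 0.74 ± 0.08 and 0.71 ± 0.07. Against LPS, the oxysterol-binding protein Osbp fell by 0.31 ± 0.06 and the lipid droplet protein Plin2 by 0.19 ± 0.05, both lost with equal array medians. The Plin2 call was also lost without any 1 of 5 arrays (adjusted p up to 0.0691, without LPS replicate 1).

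Among 8 oxysterol and bile acid genes limma called 0 with LPS, beside 13.2% of all genes, and 3 were at an unadjusted p under 0.05. Sult2b1, a sterol sulfotransferase at levels below the median of all genes, rose by 0.50 ± 0.08 with LPS plus PGE against untreated (limma adjusted p = 0.000433). It was 0.27 ± 0.08 above LPS, a call that held in 9 of 20 settings. That call was lost after cyclic loess and without any 1 of 5 arrays (limma adjusted p up to 0.113, without LPS replicate 1). For all genes at levels of 4 to 5 the median change was 0.19 against untreated and 0.21 against LPS. Gpr183, the receptor for an oxysterol made from the product of Ch25h, was 0.37 ± 0.11 lower with LPS plus PGE than with LPS (limma adjusted p = 0.0285). That call was lost without any 1 of 4 arrays (adjusted p up to 0.108, without LPS replicate 3) and after cyclic loess.

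In the lists nearest to synthesis, changes were small. Among 8 other synthesis genes, Ggps1, which makes geranylgeranyl diphosphate, and Msmo1, the methylsterol oxidase, fell with LPS plus PGE against untreated, by 0.29 ± 0.06 and 0.26 ± 0.06. Both calls were lost with equal array medians, and that of Ggps1 also after cyclic loess. Fntb, a subunit of protein farnesyltransferase, rose by 0.28 ± 0.08 with LPS and was 0.42 ± 0.08 lower with LPS plus PGE than with LPS. Its rise was lost without any 1 of 6 arrays (adjusted p up to 0.103, without untreated replicate 2), and its fall after quantile normalization. Among 15 genes of SREBP processing and fatty acid synthesis, Erlin1, which binds the SREBP complex, fell by 0.24 ± 0.06 with LPS and by 0.37 ± 0.06 with LPS plus PGE, the latter 0.24 after cyclic loess. The first of these calls was lost without any 1 of 4 arrays (adjusted p up to 0.0906, without LPS replicate 2). The desaturase Scd2 fell by 0.30 ± 0.09 with LPS plus PGE, a call lost after cyclic loess and without any 1 of 4 arrays (adjusted p up to 0.0792, without LPS plus PGE replicate 1). Against LPS limma called 0 of these 15, beside 24.7% of all genes, and 0 were at an unadjusted p under 0.05.

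Of 12 other LXR targets and efflux genes, limma called 0 with LPS, beside 13.2% of all genes, and 1 was at an unadjusted p under 0.05. The LXR partner Rxrb fell by 0.32 ± 0.07 and the apolipoprotein gene Apoc2 by 0.23 ± 0.06 with LPS plus PGE against untreated, and neither passed after cyclic loess. Abcg4, a sterol transporter, was 0.43 ± 0.11 higher with LPS plus PGE than with LPS, at levels below the median of all genes. That call was lost without LPS replicate 1 (adjusted p = 0.0532) and after cyclic loess.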

How the data were processed

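The authors hybridised 250 ng of total RNA per sample to Affymetrix mouse gene 1.1 ST arrays. Of 12 arrays made, 1 of the LPS group was removed by the authors for quality. The deposited values are log2 expression. That scale was inferred from RMA (background correction, normalization and probe set summary), named in the submitters' processing notes beside Affymetrix Power Tools, Partek and R 2.13.1, and from the values, which run from 1.20 to 13.81. The sources used here give no genome build for the array annotation. Of 35309 probe sets, 21143 carried 1 gene symbol, 1870 several and 12296 none. Each gene took its single-symbol probe set with the highest mean over all arrays.

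A group-means model over all 11 arrays was fitted with limma 3.58.1 in R 4.3.3 (8 residual and 3.77 prior degrees of freedom), two-sided, with adjustment over all 18755 genes. No detection calls were used. Members, roles, lists and rules were chosen with earlier results of these data known. All members are named; values in every array are given for members that passed with a change of at least 0.5, and from each list the 2 genes with the largest changes that passed in each comparison. Promoters came from RefSeq, build GRCm38.p6. The fit was tested on simulated data. Figures used matplotlib 3.10.9.

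Alternative settings covered the scaling (cyclic loess, quantile normalization, equal array medians), the variance model (trended and robust, array weights), separate fits of the compared groups, dim genes left out, all probe sets, probe set means, a 2-fold threshold, a replicate block and each array left out. They were run for the other pathway genes as well, a choice made after seeing the data.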

Additional observations from a re-analysis of the deposited data

Results flagged for a closer look

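In each group of 4 arrays, the array farthest from the others was set against the group's range (Dixon's test). Of 56 sets of member and group, 5 had an array standing apart, where chance gives about 1 in 20. Ch25h was at 4.05 in untreated replicate 3, below 4.51 to 4.58 in the other untreated arrays. Sqle was at 9.20 in untreated replicate 1, below 9.30 to 9.31. Apoe was at 13.29 in untreated replicate 1, below 13.34 to 13.35. LPS plus PGE replicate 4 was above the other arrays of its group for Tm7sf2, at 7.66 against 7.52 to 7.54, and for Hsd17b7, at 8.81 against 8.63 to 8.66.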

How the results depend on the processing

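Of 23 member changes that passed, 15 passed in the same direction under all 21 settings that gave a value, and 0 changed sign. Of the 61 that did not pass, 21 passed under some setting. The 78 changes of sign were all among the 61, with 0 passing after the change. A 2-fold threshold left 362, 557 and 134 genes and 1, 0 and 1 members with LPS, with LPS plus PGE against untreated and with LPS plus PGE against LPS. Cyclic loess lowered the genes called to 3897 against untreated and 2173 against LPS, and quantile normalization to 1899 against LPS. A trended and robust variance raised the members called to 11 with LPS and 12 with LPS plus PGE against LPS. In the latter, equal array medians gave 8 and leaving out dim genes, which lowers the number tested, 10. Leaving out 1 array gave 1925 to 2364, 4701 to 6143 and 2945 to 4455 genes and 5 to 8, 12 to 13 and 3 to 6 members, and the lowest gene count against LPS, 2945, was without LPS replicate 3. The cause of these shifts was not tested.

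The replicate numbers were not taken as pairs because the labels do not say that they are. Deviations of same-numbered arrays correlated at -0.02 to 0.21, over 0.1 in 7 of 10 pairs, against -0.14 to 0.09 for different numbers. Since 11 of 11 arrays correlated best with their own number, same-numbered arrays shared a part of their spread. The main fit leaves this out, and its cause was not tested. With the replicate block 2454, 6124 and 4698 genes and 7, 14 and 3 members passed. The block added Ch25h (adjusted p = 0.0395) and Nr1h3 against untreated and removed Srebf1 against LPS, and Tm7sf2 with LPS became 0.022.

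Changes of sign were these, none passing. With LPS alone, cyclic loess gave Tm7sf2 0.0014 and Apoe 0.0034. Equal array medians gave Mvk -0.025, Sqle -0.017 and Nr1h3 -0.014. Quantile normalization gave Mvk -0.033, Sqle -0.020 and Nr1h3 -0.019. Leaving out 1 array there gave Mvk -0.079 to 0.059, Sqle -0.012 to 0.042, Tm7sf2 -0.082 to 0.072 and Nr1h3 -0.021 to 0.065. With LPS plus PGE against untreated, cyclic loess gave Mvk 0.084, Pmvk 0.061, Fdps 0.058, Sqle 0.046, Ebp 0.12, Scap 0.084 and Insig2 0.059. Equal array medians gave Mvk 0.048, Pmvk 0.024, Fdps 0.066, Sqle 0.045, Ebp 0.11, Scap 0.076, Insig2 0.067 and Apoe 0.083. Quantile normalization gave Pmvk 0.015 and Ebp 0.029. Array weights gave Ebp 0.0033. Probe set means gave Scap 0.049. Leaving out 1 array there gave Hsd17b7 -0.019 to 0.066, Ebp -0.053 to 0.035 and Srebf1 -0.015 to 0.023. With LPS plus PGE against LPS, cyclic loess gave Mvk 0.071, Pmvk 0.12, Mvd 0.046, Sqle 0.017, Nsdhl 0.056, Hsd17b7 0.044, Dhcr7 0.12 and Apoe -0.062. Equal array medians gave Mvk 0.073, Pmvk 0.12, Mvd 0.043, Sqle 0.063, Nsdhl 0.12, Hsd17b7 0.065, Sc5d 0.014, Dhcr7 0.13 and Abcg1 0.021. Quantile normalization gave Mvk 0.033, Pmvk 0.12, Mvd 0.051, Nsdhl 0.029, Hsd17b7 0.0083, Dhcr7 0.084 and Apoe -0.0014. Leaving out 1 array there gave Mvk -0.13 to 0.0011, Pmvk -0.073 to 0.021, Fdps -0.040 to 0.077 and Scap -0.018 to 0.075. Leaving out dim genes gave no value for Ch25h, whose signal over background was not measured here.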
